A study of Mus musculus with 12 samples.

Results

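The mRNAs of 10 genes that carry dietary fat and cholesterol across the enterocyte were followed in mouse small-intestinal epithelium with and without the lysine acetyltransferases KAT2A and KAT2B. The 10 genes were taken from a given list of names and found by their Ensembl identifiers. All 10 were present among the 48526 genes counted. Cd36 and Npc1l1 encode uptake proteins of the cell surface, and Fabp1 and Fabp2 encode the fatty acid binding proteins of the cytosol. Mogat2 and Dgat1 encode acyltransferases of triglyceride synthesis. Mttp, Apob, Apoa4 and Apoa1 encode the transfer protein and the apolipoproteins of chylomicron assembly.

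In the proximal intestine, fatty acids and monoglycerides freed in the lumen enter the enterocyte, are bound by fatty acid binding proteins and are joined again into triglycerides at the endoplasmic reticulum. The microsomal triglyceride transfer protein loads these lipids onto apolipoprotein B, and the particle is enlarged, coated with further apolipoproteins and secreted into lymph as a chylomicron. Cholesterol enters mainly through NPC1L1. These genes are known for high expression in mature villus enterocytes.

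The study sequenced 12 libraries from 4 female mice aged 3 months. In 2 animals Kat2a and Kat2b were deleted by tamoxifen, given into the peritoneum at 100 mg/kg on 4 consecutive days in ethanol and corn oil (DKO). The 2 control animals received the same solvent without tamoxifen, and all 4 were sampled 2 days after their final dose. Only DKO animals received tamoxifen, so deletion and tamoxifen cannot be told apart. The labels used here do not give the Cre driver, the strain or the alleles of the control animals. Epithelium was released with EDTA as a whole-epithelium preparation from the proximal part of the small intestine. From each animal came 1 input library of unselected RNA, 1 J2 pulldown and 1 K1 pulldown. J2 and K1 are antibodies that recognise double-stranded RNA irrespective of its sequence. The 6 groups of library kind and genotype therefore hold 2 animals each, and every SD below is over 2 animals.

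Reads assigned to genes numbered 10307281 to 11474107 per input, 13308021 to 16139531 per control pulldown and 2220291 to 5826361 per DKO pulldown. Mitochondrial genes took 3.23% to 4.33% of counts in input and 1.40% to 2.77% in control pulldowns, against 8.76% to 18.6% in DKO pulldowns. The targeted genes were lower in DKO input (edgeR, Kat2b log2 fold change -1.51 ± 0.17 SE, adjusted p = 6.31e-04, Kat2a -0.88 ± 0.23, adjusted p = 0.0205). The 10 enterocyte markers examined, among them Vil1, Alpi and Anpep, were detected in all 12 libraries, with a summed level, scaled to library size as CPM, of 16834 to 22368 in the 4 inputs. In the pulldowns of DKO animal 2 that sum was 4051 CPM for J2 and 6299 for K1, below the 13896 to 21268 of the other 6 pulldowns. The part of mitochondrial RNA, depth or this animal in the pulldown results was not tested.

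In GENCODE M21 on GRCm38, Cd36 (ENSMUSG00000002944.15) spans chr5:17781690-17888801 on the minus strand and Npc1l1 (ENSMUSG00000020447.5) chr11:6211013-6230143 on the minus strand. Fabp1 (ENSMUSG00000054422.7) spans chr6:71199827-71205023 and Fabp2 (ENSMUSG00000023057.5) chr3:122895072-122899506, both on the plus strand. Mogat2 (ENSMUSG00000052396.7) spans chr7:99219084-99238619 and Dgat1 (ENSMUSG00000022555.11) chr15:76502015-76511953, both on the minus strand. Apob (ENSMUSG00000020609.14) spans chr12:7977648-8016835 on the plus strand and Mttp (ENSMUSG00000028158.14) chr3:138089854-138144968 on the minus strand. Apoa1 (ENSMUSG00000032083.8) and Apoa4 (ENSMUSG00000032080.6) are near neighbours, at chr9:46228580-46230466 and chr9:46240696-46243459 on the plus strand. Between them lies Apoc3, at chr9:46232933-46235636 on the minus strand, which encodes another chylomicron apolipoprotein. Antisense transcripts overlap 69.8% of the exon length of Apoa4. Since the counts were made without strand, reads of Apoa4 and of those transcripts cannot be told apart. The antisense gene among those counted, Gm10680, had at most 3 counts in any library. How reads on both genes were counted is not given, so this low count does not show that such reads were few. Overlap with other genes covered 9.49% of the exons of Mttp and 3.00% of those of Mogat2. For the other 7 genes no exon base overlapped another annotated gene.

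Levels in control input ranked the apolipoproteins of the particle surface first and Cd36 last. Per kilobase of exon, Apoa1 stood at 4098 ± 412 CPM, above every other member in both control animals. Apoa4 followed at 1647 ± 393, Fabp1 at 1250 ± 282 and Fabp2 at 1206 ± 293, and the values of these 3 overlapped between animals. Apob, whose transcript is the longest of the set with 13934 bases of exon, was the most abundant by CPM but stood at 543 ± 47.5 CPM per kilobase. Mttp at 327 ± 13.3 and Npc1l1 at 297 ± 13.1 came next and did not overlap. Dgat1 stood at 172 ± 11.3 and Mogat2 at 156 ± 5.75, both genes of the final acylation steps. Cd36 stood at 22.0 ± 3.72, below every other member.

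**Figure D1:**
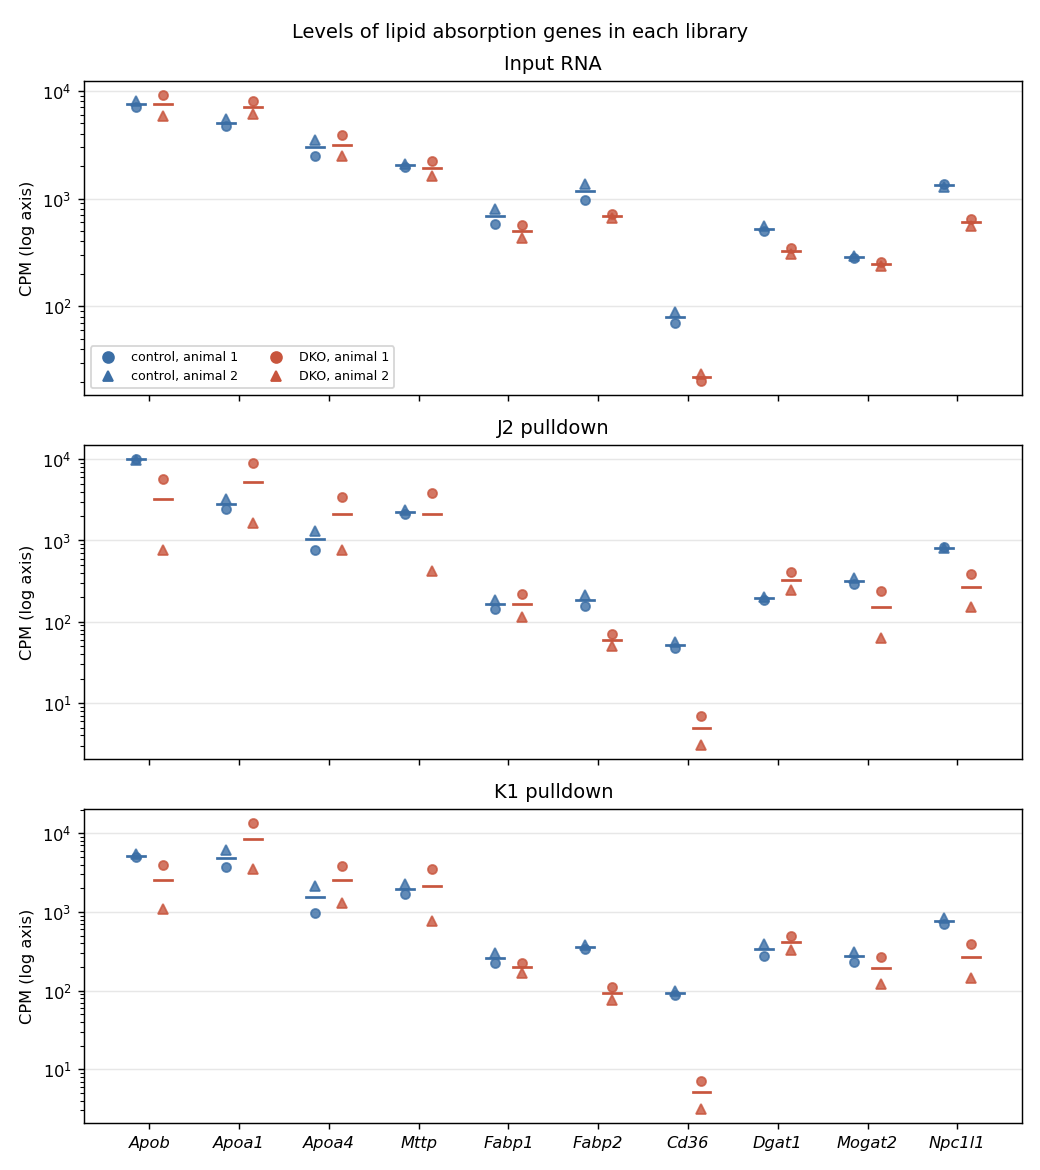
Level of each of the 10 genes in CPM (log axis) in input, J2 and K1 libraries, with control animals in blue, DKO animals in red and a bar at each group mean (n = 2). In all 3 panels the DKO values of Cd36, Fabp2 and Npc1l1 lie below the control values. In the J2 and K1 panels DKO animal 2 lies below DKO animal 1 for every gene, after TMM scaling.

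In input RNA, Cd36, Npc1l1, Fabp2 and Dgat1 were lower in DKO, while none of the 4 genes of particle assembly was called. Called means an edgeR adjusted p under 0.05. Of the 10 members, 4 were called, all lower, against 35.9% of the 15088 genes tested called in either direction and 17.1% called lower. The members' median log2 fold change was -0.29, and that of all genes tested was -0.001. All 10 members passed the filter on low counts. Without control animal 2, 2 members were called, and in the fit of all 12 libraries 1, Cd36.

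Cd36 encodes a scavenger receptor that binds long-chain fatty acids. It stood at 69.5 and 88.3 CPM in control input and at 20.5 and 23.5 CPM in DKO input. Both DKO values were below both control values, and the log2 fold change was -1.80 ± 0.16 (edgeR adjusted p = 2.99e-04). It was called lower in input under all 10 alternative settings, from -1.97 to -1.63. In bulk RNA, fewer cells of a type and less RNA per cell cannot be told apart.

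Cd36 is also expressed by endothelial cells, macrophages and adipocytes. The 8 endothelial markers summed to 9.21 and 10.5 CPM in control and 15.3 and 21.9 CPM in DKO, with Kdr and Emcn at 0 counts in both controls. The 8 macrophage markers summed to 6.48 and 7.39 CPM in control and 18.6 and 32.6 CPM in DKO. The 6 adipocyte markers summed to 43.5 and 51.9 CPM in control and 133 and 104 CPM in DKO. Nearly all of that sum was Cidec, a lipid droplet protein (1.36 ± 0.16, edgeR adjusted p = 8.79e-04), while Adipoq, Lep and Fabp4 were at 0 counts in all 4 inputs and Plin1 and Retn at no more than 1. Of the markers that could be tested, 1 of 4 endothelial, 4 of 4 macrophage and 1 of 1 adipocyte markers were called, all higher. Over all genes tested in input, 35.9% were called. The 4 endothelial markers tested split into 2 higher and 2 lower, with a median log2 fold change of -0.05. The part of these cells in the values of Cd36 was not tested.

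Npc1l1, the cholesterol importer of the brush border, stood at 1369 and 1286 CPM in control input and at 640 and 560 CPM in DKO input. The groups did not overlap, and the log2 fold change was -1.11 ± 0.15 (edgeR adjusted p = 0.00158). In a fit of all 12 libraries, which share 1 estimate of the spread, Npc1l1 was no longer called (adjusted p = 0.216).

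Of the pair of cytosolic fatty acid binding proteins, Fabp2 was lower in DKO input, and the difference between the pair was not tested. Fabp2, the intestinal form, stood at 964 and 1364 CPM in control input and at 725 and 654 CPM in DKO input. It was called lower at -0.72 ± 0.19 (edgeR adjusted p = 0.0250), a call lost without control animal 2 (-0.45, adjusted p = 0.272), without DKO animal 2 (adjusted p = 0.0517) and in the fit of all 12 libraries (adjusted p = 0.239). Fabp1, the liver form that enterocytes also make, stood at 581 and 802 CPM in control and at 574 and 430 CPM in DKO. Its groups did not overlap, with a margin of under 10 CPM between the nearest animals, and it was not called (-0.42 ± 0.21, adjusted p = 0.151). Fabp1 was called lower in 2 of 10 alternatives, without TMM (adjusted p = 0.0352) and without the filter (0.00703).

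Of the acyltransferases, Dgat1 was lower and Mogat2 was not called. Dgat1, which adds the last acyl chain of a triglyceride, stood at 502 and 550.7 CPM in control input and at 348 and 308 CPM in DKO input. Its log2 fold change was -0.64 ± 0.14 (edgeR adjusted p = 0.0101), with the call lost without control animal 2 (adjusted p = 0.0964) and in the fit of all 12 libraries (0.296). Mogat2, which acylates monoglycerides, stood at 279 and 294 CPM in control and at 260 and 237 CPM in DKO. Its difference of -0.17 ± 0.13 was not called (adjusted p = 0.342), with a 95% interval from -0.46 to 0.13.

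None of the 4 assembly genes was called in input by edgeR, and 0 of them had an unadjusted p under 0.05, while DESeq2 called 1, Apoa1, higher. Apob, the structural protein of the chylomicron, stood at 7103 and 8039 CPM in control and at 9079 and 5855 CPM in DKO. The 2 DKO animals lay on either side of the controls, and the interval of the log2 difference ran from -0.59 to 0.63. Mttp, the lipid-loading protein, stood at 1971 and 2088 CPM in control and at 2225 and 1607 CPM in DKO, with the same arrangement and an interval from -0.51 to 0.42.

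Apoa4, a surface apolipoprotein of chylomicrons, stood at 2485 and 3494 CPM in control and at 3879 and 2463 CPM in DKO, with an interval from -0.51 to 0.75. Apoa1, the main protein of high-density lipoprotein that the intestine also secretes, stood at 4705 and 5425 CPM in control and at 8025 and 6114 CPM in DKO. Both DKO values of Apoa1 exceeded both control values, and the difference of 0.52 ± 0.22 was not called (edgeR adjusted p = 0.108), but was called in 3 of 10 alternatives, which were DESeq2 (adjusted p = 0.0237), no filter (1.34e-04) and without DKO animal 2 (0.70, adjusted p = 0.00677). Apoc3, which lies between them, was lower in both DKO animals, at 374 and 439 CPM in control and 124 and 97.3 CPM in DKO (-1.84 ± 0.17, adjusted p = 3.19e-04).

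Values of the 4 inputs separated by genotype in 7 members. In 6 of the 10 members both DKO values lay below both control values, against 38.9% of all genes tested, and in 1 member, Apoa1, both lay above, against 34.0%. The remaining 3, Apob, Apoa4 and Mttp, overlapped. Over both directions the share of members that separated was near that of all genes, so the count of 7 is no result about the members.

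**Figure D2:**
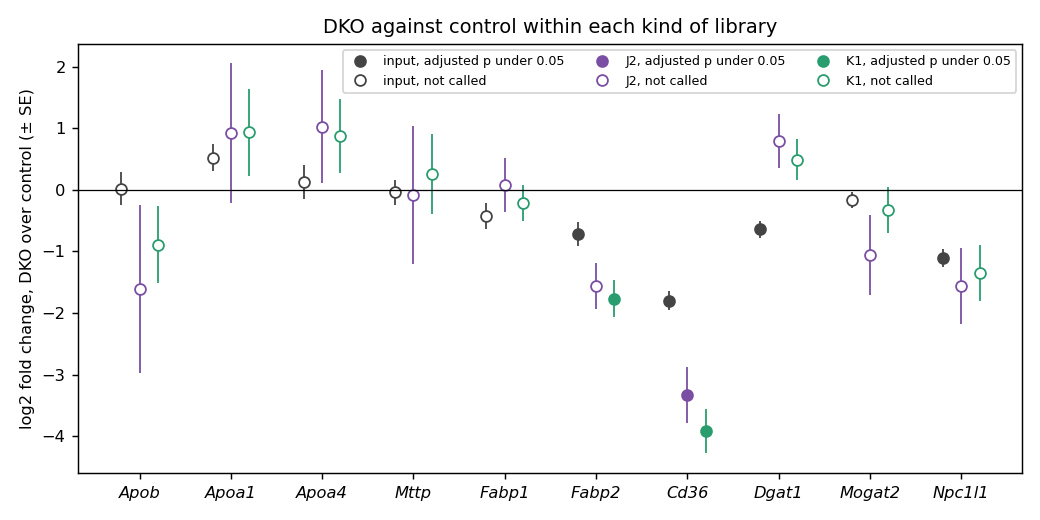
Log2 fold change of DKO over control for each gene in input (grey), J2 (purple) and K1 (green) libraries, with bars of 1 SE and filled points for an edgeR adjusted p under 0.05. Filled points are Cd36 in all 3 kinds of library, Fabp2 in input and K1, and Npc1l1 and Dgat1 in input. The points of Apob, Apoa1, Apoa4 and Mttp in J2 have the widest bars.

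The windows upstream of Cd36, Npc1l1 and Fabp2, the 3 members most reduced in input, are shown because their DKO values lay below their control values in every kind of library. Each is the 250 bases before the RefSeq start on GRCm38.p6, read on the coding strand, with motif matches in capitals. Cd36 lies at chr5:17835897-17836146 on the minus strand, downstream of other annotated Cd36 starts. Npc1l1 lies at chr11:6230246-6230495 on the minus strand, and Fabp2 at chr3:122894822-122895071 on the plus strand.
Cd36: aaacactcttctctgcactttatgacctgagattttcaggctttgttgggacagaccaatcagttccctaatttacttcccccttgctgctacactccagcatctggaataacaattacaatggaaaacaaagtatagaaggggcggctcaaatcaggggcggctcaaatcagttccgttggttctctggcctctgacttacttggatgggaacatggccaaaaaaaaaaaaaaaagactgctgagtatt
Npc1l1: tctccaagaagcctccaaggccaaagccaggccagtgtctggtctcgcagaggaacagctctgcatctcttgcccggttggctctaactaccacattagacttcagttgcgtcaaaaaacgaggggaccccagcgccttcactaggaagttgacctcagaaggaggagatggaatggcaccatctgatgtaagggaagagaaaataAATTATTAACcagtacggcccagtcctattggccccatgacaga
Fabp2: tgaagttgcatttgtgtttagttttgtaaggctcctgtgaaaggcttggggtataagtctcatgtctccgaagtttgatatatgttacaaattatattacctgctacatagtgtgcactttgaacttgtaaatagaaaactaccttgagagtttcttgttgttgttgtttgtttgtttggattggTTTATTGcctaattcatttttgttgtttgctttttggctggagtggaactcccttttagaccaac

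Of the 10 members 8 had such a window in the RefSeq table, and Dgat1 and Mogat2 did not. Both strands were searched for 6 motifs of factors known to act in enterocytes or of the core promoter. The Npc1l1 window holds the HNF1 motif on the opposite strand, which occurs in 0.371% of 32851 promoter windows of this length. TTTATNG (CDX) occurs in the windows of Fabp2, Fabp1 and Apob, and in 9.81% of all. TATAAA, the core promoter motif, occurs in those of Fabp1 and Apob, and in 12.4% of all. In Apob the matches to the CDX motif and the core promoter motif overlap. The HNF4 motif was searched as CAAAGTCCA (0.384% of all) and the GATA motif as AGATAA (9.99%). Neither occurs in any of the 8 windows, nor does the direct repeat bound by nuclear receptors (0.0335% of all). The Cd36 window holds none of the 6 motifs.

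Around these members, most other genes of lipid uptake and transport were also lower in DKO input, and most genes of cholesterol synthesis were higher. Of 10 further genes of lipid uptake and transport, 7 were called, all lower, with a median log2 fold change of -0.70. Counts for the lists in input stand against the 35.9% of all genes tested that were called and the 17.1% called lower. The 3 with the largest change were Slc27a2 (-1.19 ± 0.17), which encodes a very long chain acyl-CoA synthetase, Scarb1 (-1.07 ± 0.18), the high-density lipoprotein receptor, and Slc27a4 (-1.07 ± 0.20), the fatty acid transport protein of enterocytes. Their edgeR adjusted p-values were 0.00166, 0.00405 and 0.00526. In the fit of all 12 libraries these calls were lost. The lists were chosen with earlier results of these data known, so their counts are a description.

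In re-esterification and lipid droplets, 2 of 12 genes were called, both higher, with a median of 0.06. They were Dgat2 (0.86 ± 0.26, edgeR adjusted p = 0.0343), the other enzyme that completes triglycerides, and Lpin3 (0.75 ± 0.19, adjusted p = 0.0193), a phosphatidate phosphatase. Dgat2 stood at 192 and 233 CPM in control and at 481 and 271 CPM in DKO. Dgat1 and Dgat2 thus moved in opposite directions in input, and the difference between the pair was not tested.

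Of 12 further genes of chylomicron assembly and secretion, 4 were called higher and 1, Apoc3, lower, with a median of 0.18. This share of calls is close to the 35.9% of all genes. Apobec1, the enzyme that edits the Apob transcript into the short intestinal form, stood at 48.9 and 46.9 CPM in control and 118 and 104 CPM in DKO (1.25 ± 0.12, edgeR adjusted p = 4.39e-04). Pla2g12b, needed for loading of lipoproteins, rose by 0.80 ± 0.12 (adjusted p = 0.00241). Apoc2 was called too, but 79.5% of its exon length overlaps Gm44805, a gene on the same strand, so its counts are uncertain. The genes of secretory traffic named Sar1b and Surf4 were not called (0.02 ± 0.15 and 0.29 ± 0.16).

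Of 12 transcriptional regulators, 1 was called higher and 3 lower, with a median of 0.02. The share called was near that of all genes, 35.9%, so the count is no result about the list, and single genes are given for their values. Srebf2, the sterol-regulated activator of cholesterol synthesis, rose by 1.08 ± 0.18 (edgeR adjusted p = 0.00330). Ppara, which controls fatty acid oxidation genes, stood at -0.87 ± 0.20 (adjusted p = 0.0129) and Hnf4g, an intestinal nuclear receptor, at -0.71 ± 0.13 (adjusted p = 0.00495), both lower. Hnf4a was not called (0.08 ± 0.16).

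Fatty acid oxidation had 7 of 12 genes called lower and 1 higher, with a median of -0.49. Acaa2, a mitochondrial thiolase, was lower (-1.27 ± 0.31, edgeR adjusted p = 0.0164). Acadl, a long-chain acyl-CoA dehydrogenase, was the exception at 92.9 and 100 CPM in control and 438 and 348 CPM in DKO (2.06 ± 0.16, adjusted p = 1.82e-04). Cholesterol synthesis and sterol response had 10 of 12 genes called, all higher, with a median of 1.33. Sqle (1.82 ± 0.20), Fdft1 (1.64 ± 0.26) and Cyp51 (1.54 ± 0.20), all enzymes of sterol synthesis, had edgeR adjusted p-values of 6.04e-04, 0.00316 and 0.00121. Ctsb, on the opposite strand, overlaps 18.3% of the exon length of Fdft1, so the Fdft1 counts are less certain. In the fit of all 12 libraries 1 cholesterol gene and 2 oxidation genes were called, and without control animal 2 the oxidation genes called lower were 3.

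**Figure D3:**
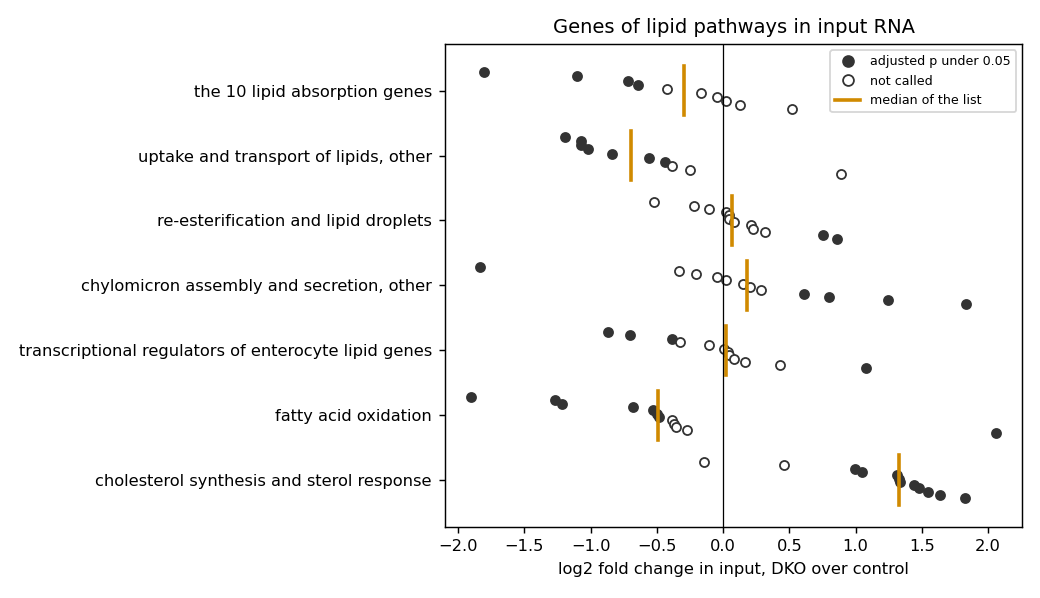
Log2 fold change of DKO over control in input RNA for the 10 members and for 6 lists of lipid genes, 1 point per gene, filled where the edgeR adjusted p was under 0.05, with the median of each list as a bar. Medians run from -0.70 for other genes of lipid uptake and transport to 1.33 for cholesterol synthesis.

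Among markers of cell states and types in the same inputs, those of crypt and proliferation were mostly lower. Of all genes 35.9% were called. Of the 10 enterocyte markers, 6 were lower and 4 higher, with a median of -0.29, and 4 were called, all lower. Their summed level overlapped between genotypes, at 21316 and 21802 CPM in control and 22368 and 16834 CPM in DKO. Among those called, Lct stood at -5.31 ± 0.24 and Sis at -1.36 ± 0.17, both digestive enzymes of the brush border (edgeR adjusted p = 5.30e-05 and 0.00115). Of 8 crypt and proliferation markers 7 were called lower, and their summed level was 666 and 724 CPM in control against 126 and 181 CPM in DKO. The bile acid transporter Slc10a2, typical of ileal enterocytes, was higher at 4.38 ± 0.36 (adjusted p = 2.31e-04). It is 1 of 4 ileal markers, of which 3 could be tested and 2 were called higher, with a median of 0.80. Summed, the 4 overlapped between genotypes, at 206 and 232 CPM in control and 289 and 228 CPM in DKO. Of 7 leukocyte markers that could be tested 4 were called lower, with a median of -0.60, and of 6 goblet cell markers 2 were called higher, with a median of 0.33. Summed, the goblet cell markers overlapped between genotypes, at 10133 and 11305 CPM in control and 12189 and 9669 CPM in DKO. The shares of enterocyte and goblet cell markers called in either direction were near that of all genes. The part of these marker differences in the members' values was not tested.

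In the J2 pulldown Cd36 was the only member called between genotypes, lower in DKO. The count of 1 of 10 stood against 12.2% of 13181 genes called and 6.17% called lower. Cd36 stood at 47.8 and 56.4 CPM in control J2 and at 6.87 and 3.08 CPM in DKO J2, the latter from 27 and 10 counts. The groups did not overlap, and the log2 fold change was -3.33 ± 0.45 (edgeR adjusted p = 0.0287). Fabp2 stood at 156 and 214 CPM in control and at 70.3 and 50.6 CPM in DKO, also without overlap, and was not called (-1.56 ± 0.38, adjusted p = 0.0546). Fabp2 was called lower in J2 in 6 of 10 alternatives, among them DESeq2 (adjusted p = 0.0285) and the fit of all 12 libraries (0.00700). The J2 count changed when either DKO animal was left out: without DKO animal 1 edgeR called 8 members, 7 of them lower, and without DKO animal 2 it called 9, of which 4 were lower.

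In the K1 pulldown 2 of 10 members were called, both lower, against 27.1% of 12888 genes called and 13.9% called lower. Cd36 stood at 87.6 and 98.2 CPM in control K1 and at 7.12 and 3.17 CPM in DKO K1, from 30 and 7 counts (-3.92 ± 0.36, edgeR adjusted p = 0.00184). Its groups were far apart. Fabp2 stood at 338 and 384 CPM in control and at 111 and 75.1 CPM in DKO (-1.77 ± 0.30, adjusted p = 0.00727). Without control animal 2 the Fabp2 call was lost (adjusted p = 0.0526), while Cd36 was called under all 10 alternatives in J2 and in K1. Without DKO animal 1, 6 members were called in K1, all lower, and without DKO animal 2, 7 were called, 3 of them lower.

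Fabp1 overlapped between genotypes in both pulldowns. It stood at 142 and 186 CPM in control J2 and 220 and 116 CPM in DKO J2, and at 221 and 298 CPM against 226 and 169 CPM in K1.

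Npc1l1 had lower values in DKO in both pulldowns as well. In J2 it stood at 821 and 803 CPM in control and at 388 and 153 CPM in DKO, and in K1 at 694 and 827 CPM against 390 and 144 CPM. No DKO value reached a control value, and the K1 difference of -1.35 ± 0.45 was not called (edgeR adjusted p = 0.0619). In K1 it was called lower in 6 of 10 alternatives, among them DESeq2 (adjusted p = 0.0178). They include the fits without DKO animal 1 or 2, and the replicate block, which pairs different animals by an arbitrary number. Both DKO animals were lower, with animal 2 the lower of them.

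Dgat1, which was lower in DKO input, had higher mean levels in the DKO pulldowns. In J2 it stood at 187 and 201 CPM in control and at 407 and 248 CPM in DKO, with both DKO values above both controls. In K1 it stood at 276 and 396 CPM in control and at 500 and 330 CPM in DKO, and the groups overlapped. Neither pulldown difference was called.

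The assembly genes in the DKO pulldowns were split between the 2 animals. Apob in J2 stood at 9950 and 9873 CPM in control and at 5761 and 757 CPM in DKO. Mttp in J2 stood at 2095 and 2391 CPM in control and at 3839 and 419 CPM in DKO, so that 1 DKO animal lay above both controls and the other below them. Apoa1 in J2 showed the same arrangement, with 2420 and 3203 CPM in control and 8945 and 1660 CPM in DKO.

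DKO animal 1 exceeded DKO animal 2 by 9.16-fold for Mttp, 7.60-fold for Apob, 5.39-fold for Apoa1 and 4.53-fold for Apoa4 in J2. The least separated member was Fabp2 at 1.39-fold. Over the 10 members the median of this ratio was 3.07 in J2 and 2.43 in K1, against 1.23 in input and 1.00 for all genes in J2. Of all genes, 1.79% had a larger split in J2 than Mttp and 2.99% a larger one than Apob. In the same J2 libraries the sum of enterocyte markers was 20225 and 4051 CPM, and that of 6 goblet cell markers 12975 and 2228 CPM. These markers split the same way as the members, and their part in the split was not tested. All these values are CPM scaled by TMM, with factors of 0.6741 and 1.205 for J2 of DKO animals 1 and 2. Without the factors each J2 ratio of a member is smaller, and those of Fabp2 and Dgat1 change direction.

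In K1 the split of the assembly genes had the same direction. Apob stood at 5019 and 5394 CPM in control K1 and at 3991 and 1093 CPM in DKO K1. Mttp stood at 1664 and 2262 CPM in control and at 3485 and 768 CPM in DKO. Apoa1 stood at 3709 and 6043 CPM in control and at 13313 and 3502 CPM in DKO. Again DKO animal 1 held the higher value for each, and for Mttp and Apoa1 the DKO animals lay on either side of the controls. Apoa4 stood at 974 and 2147 CPM in control K1 and at 3792 and 1314 CPM in DKO K1, and at 761 and 1303 CPM against 3421 and 755 CPM in J2, with overlap in K1 and values on both sides of the controls in J2. Mogat2 stood at 289 and 345 CPM in control J2 and 238 and 63.8 CPM in DKO J2, and at 233 and 314 CPM against 266 and 122 CPM in K1.

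Relative to control input, the fatty acid binding proteins were the members most depleted from both control pulldowns. In control J2 against input, 3 members were called, all lower, against 29.8% of 15923 genes called and 14.6% called lower. The log2 fold change was -2.65 ± 0.42 for Fabp2 (edgeR adjusted p = 0.00431), -2.07 ± 0.44 for Fabp1 (adjusted p = 0.0114) and -1.44 ± 0.36 for Dgat1 (adjusted p = 0.0209). Per animal, J2 minus input was -2.63 and -2.67 for Fabp2, and 0.49 and 0.30 for Apob. All 3 calls were lost when either control animal was left out, while 7 and 8 members were called without DKO animal 1 or 2.

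In control K1 against input, 2 members were called lower, against 39.8% of 15908 genes called and 20.1% called lower. They were Fabp2 (-1.77 ± 0.30, edgeR adjusted p = 0.00159) and Fabp1 (-1.50 ± 0.30, adjusted p = 0.00340). With the animal as a block, 5 members were called. Both calls of the pair were lost when either control animal was left out, while 6 members were called without either DKO animal.

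Across the 10 members, J2 minus input in control was higher for genes with longer exons (Spearman rho 0.81, n = 10 genes), and across all genes rho was 0.40 (n = 15874 genes). Genes are not independent replicates, all points come from the same 4 libraries, and no test is given. The shortest members are Fabp1, with 553 bases of exon, and Fabp2, with 965, and the longest is Apob. In DKO the same rho over members was 0.27, and for K1 it was 0.55 in control and 0.05 in DKO.

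In DKO, Cd36 was among the members called lower in both pulldowns against input. In J2 against input, 3 members were called lower, against 25.7% of genes called and 13.4% called lower. They were Fabp2 (-3.48 ± 0.43, edgeR adjusted p = 0.00301), Cd36 (-2.09 ± 0.36, adjusted p = 0.00733) and Fabp1 (-1.56 ± 0.43, adjusted p = 0.0333). In control J2, Cd36 also lay below input in both animals. With control animal 1 left out 0 of the 3 members were called, and with control animal 2 left out 1 was. Without DKO animal 1 or 2, 10 and 6 members were called. Each such fit takes its spread from all remaining libraries.

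In DKO K1 against input, 5 members were called lower, against 35.6% of genes called and 21.0% called lower. Fabp2 (-2.96 ± 0.32, edgeR adjusted p = 2.48e-04), Cd36 (-2.07 ± 0.31, adjusted p = 0.00120) and Fabp1 (-1.43 ± 0.30, adjusted p = 0.00577) were called under all 10 alternatives. Apob (-1.64 ± 0.56, adjusted p = 0.0437) and Npc1l1 (-1.25 ± 0.40, adjusted p = 0.0349) lost their calls in the fit of all 12 libraries and without either control animal, where 3 members were called.

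Of the 12 further assembly and secretion genes, 8 were called lower in DKO K1 against input and 5 in control. Over all genes 21.0% and 20.1% were called lower. In control these calls were lost without either control animal, and in DKO 5 assembly calls were left. The difference between genotypes in K1 was called for 0 assembly genes by edgeR, with 3 at an unadjusted p under 0.05 and 1 called by DESeq2.

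**Figure D4:**
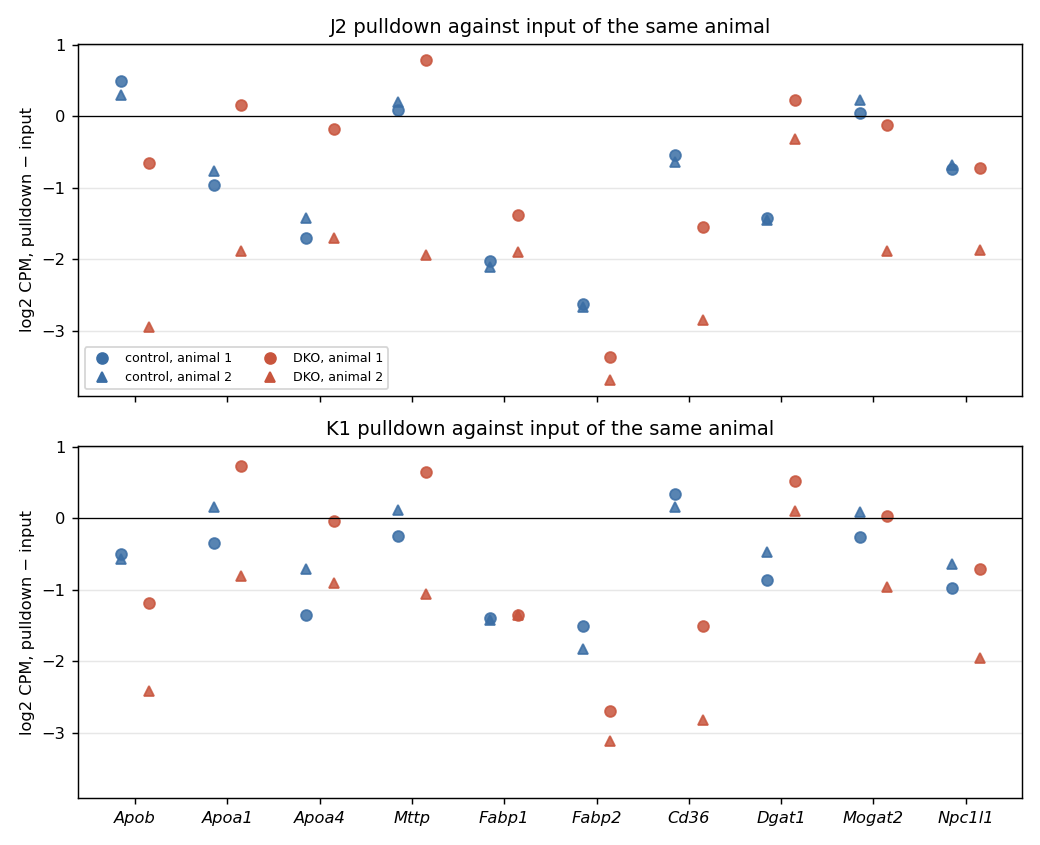
Log2 CPM in the pulldown minus log2 CPM in the input of the same animal, for J2 (top) and K1 (bottom), 1 point per animal. For Cd36 both DKO animals lie below both control animals in each panel, and for Mttp and Apoa1 the DKO animals lie on either side of the controls.

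Whether pulldown over input differed between genotypes was tested as an interaction. For K1, 1 of 10 members was called, against 5.47% of genes called and 4.10% called lower. Cd36 stood in K1 minus input at 0.33 and 0.15 in control and at -1.50 and -2.82 in DKO. The groups did not overlap, and the difference was -2.23 ± 0.39 (edgeR adjusted p = 0.0198), where the median of all genes was -0.20. The call was lost without control animal 1 (-2.18, adjusted p = 0.585), without control animal 2 (-2.39, adjusted p = 0.258) and in the fit of all 12 libraries (-2.25, adjusted p = 0.0732). Over all genes those fits called 0, 3 and 59, against 870 with all 8 libraries. The Cd36 call was kept with the animal as a block, and without DKO animal 1 edgeR called 6 members. The DKO values rest on 30 and 7 counts of Cd36.

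For J2 the difference was called for 0 of 10 members by edgeR, against 2.71% of genes, with 2 at an unadjusted p under 0.05 and 2, Cd36 and Dgat1, called by DESeq2 (adjusted p = 0.0276 and 0.0137). Without DKO animal 1 or 2, 7 and 4 were called. The J2 and K1 differences share the input libraries. Cd36 stood in J2 minus input at -0.54 and -0.64 in control and at -1.55 and -2.85 in DKO (-1.50 ± 0.47, adjusted p = 0.106). Dgat1 went the other way, at -1.43 and -1.45 in control and at 0.23 and -0.32 in DKO (1.46 ± 0.50, adjusted p = 0.127). Dgat1 in K1 stood at -0.86 and -0.48 in control and at 0.53 and 0.10 in DKO (0.99 ± 0.41, adjusted p = 0.177). In both pulldowns the 2 genotypes were separated for Dgat1, with DKO higher, and neither difference was called by edgeR. DESeq2 called both, with an adjusted p of 0.0430 in K1. The J2 difference was called in 4 of 10 alternatives for Dgat1 and in 3 for Cd36, and the K1 difference of Dgat1 in 1.

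Fabp2 had a lower pulldown share in both DKO animals, with J2 minus input at -2.63 and -2.67 in control and -3.36 and -3.69 in DKO. Its difference was -0.84 in J2 and -1.20 ± 0.42 in K1 (edgeR adjusted p = 0.369 and 0.124), and the K1 difference was called in 2 of 10 alternatives. Fabp1 had a difference of 0.07 in K1 with a 95% interval from -0.85 to 0.99. Apob stood in J2 minus input at 0.49 and 0.30 in control and at -0.66 and -2.95 in DKO (-1.57 ± 1.38, adjusted p = 0.499). Mttp stood at 0.09 and 0.20 in control and at 0.79 and -1.94 in DKO, and its interval ran from -2.80 to 2.85. Such an interval spans changes of several fold in either direction.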

How the data were processed

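Deposited counts of 12 libraries were used, in 1 file per library, as whole-number reads per gene counted by the authors without strand, per the labels. The submitters' processing notes name FastQC, STAR 2.7.10b, SAMtools 1.17, UMI-tools 1.1.4, HTSeq 2.0.2, DESeq2 1.40.1, edgeR 3.42.2, deepTools 3.5.2 and the builds mm10 and GRCm38.p4, without their roles. Random priming, removal of ribosomal RNA, molecular identifiers and read pairs of 150 bases are given in the labels' protocols. How overlapping genes and the identifiers were handled is not given in the sources used here. Rows that name no gene took 18.7% to 61.2% of listed reads and were left out.

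Of 48526 identifiers, 48058 matched GENCODE M21 (GRCm38) without the version suffix. The quasi-likelihood test of edgeR 4.0.16 (R 4.3.3) was run on TMM-scaled counts of genes kept by filterByExpr at a minimum count of 10, and p-values were adjusted over all genes tested by Benjamini-Hochberg. Genotypes were compared per library kind (4 libraries), and pulldown with input, and their interaction with genotype, in 8 libraries per antibody. The main fits of 8 libraries had no term for the animal, although each animal gave both input and pulldown. The animal was a block in an alternative only. The SE was derived from the F statistic, and intervals are at 95%. Levels are CPM scaled over all 12 libraries, and a prior count of 2 was added for log2 CPM. The scripts were tested on simulated data with the same spread in every library. That test does not cover the wider spread between the DKO pulldowns. Depth was 2220291 to 16139531 gene-assigned counts, and replicates differed by more than counting noise.

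The 10 members and the gene lists were chosen with earlier results of these data known. Named pathway genes are the up to 3 called genes per list with the largest change in input, a mean of at least 50 counts and no overlap between genotypes. A gene this rule picks is not reported here. Genes named as examples beyond these were chosen after their values were seen. Alternatives were other scalings, no filter, DESeq2 1.42.0, all 12 libraries in 1 fit, a replicate block and each animal left out.

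Libraries with the same number within a genotype come from the same animal, by the animal names in the labels. Their deviations from group means correlated between input and pulldown at 0.292 (J2) and 0.296 (K1) in control and at 0.247 and 0.208 in DKO. Between genotypes the same number marks different animals, so in genotype comparisons the replicate block pairs animals by an arbitrary number.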

Additional observations from a re-analysis of the deposited data

Results flagged for a closer look

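The difference between genotypes in the ratio of K1 pulldown to input passed the interaction test for Cd36, at -2.23 on the log2 scale. In K1 minus input of the same animal, Cd36 stood at 0.33 and 0.15 in control and at -1.50 and -2.82 in DKO, so that both DKO animals lay below both controls. The DKO pulldown values rest on 30 and 7 counts. The call was lost in 3 of 10 alternatives, which were the fit of all 12 libraries and those without control animal 1 or 2.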

How the results depend on the processing

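Members called numbered 4, 1 and 2 for DKO against control in input, J2 and K1, 3 and 3 for J2 against input in control and DKO, 2 and 5 for K1 against input, and 0 and 1 for the J2 and K1 differences of enrichment. Without TMM these were 3 for J2 by genotype, 6 and 5 for J2 against input, 5 for K1 against input in control, and 1 and 2 for the differences. Without the filter they were 2, and 5 for K1 against input in control, and 1 for the J2 difference. DESeq2 gave 3 in J2, 4 for K1 against input in control, and 2 and 2 for the differences. The fit of all 12 libraries gave 1 in input, 3 in J2, 3 for K1 against input in DKO and 0 for the K1 difference. With the replicate block, K1 against input in control gave 5, and no other count of members called by this pairing moved by over 1.5 times. Leaving out 1 animal gave 2 to 4 in input, 1 to 9 in J2, 1 to 7 in K1, 0 to 8 and 0 to 10 for J2 against input in control and DKO, 0 to 6 and 3 to 7 for K1 against input, 0 to 7 for the J2 difference and 0 to 6 for the K1 difference. A group left with 1 animal is then assumed to vary like the others.

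Members that were not called changed sign under some settings, and the cause was not tested. In input, Apob was -0.13 without TMM, -0.020 in the fit of all 12 libraries, -0.012 with the replicate block and -0.32 to 0.30 with 1 animal left out. Apoa4 was -0.027 without TMM and -0.23 to 0.41 with 1 animal left out, and Mttp -0.29 to 0.17. For the J2 difference, Mttp was -0.016 with DESeq2 size factors and in DESeq2, -0.26 without TMM, -0.28 without the filter, -0.69 with the replicate block and -2.07 to 0.66 with 1 animal left out. With 1 animal left out, the J2 difference ran from -1.02 to 1.02 for Apoa1 and from -0.16 to 1.37 for Apoa4. For the K1 difference, Fabp1 was -0.016 without TMM and Mttp -0.14 with the replicate block. With 1 animal left out the K1 difference ran from -3.88e-04 to 0.065 for Fabp1, -0.80 to 0.77 for Apoa1, -0.018 to 0.99 for Apoa4, -1.07 to 0.68 for Mttp, -0.95 to 0.087 for Mogat2 and -1.21 to 0.074 for Npc1l1.

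Over all genes, calls for DKO against control in input were 5421 and 1675 in the fit of all 12 libraries. In J2 they were 1609 and ranged from 177 to 8635, and in K1 3489 and from 1150 to 5819. For pulldown against input they were 4746 (0 to 10140) and 4088 (346 to 7790) for J2 and 6324 (281 to 9191) and 5659 (3005 to 6366) for K1, in control and DKO. Calls for the J2 difference were 432, 2018 by DESeq2 and 0 with the replicate block, and for the K1 difference 870, 1253 by DESeq2, 59 in the fit of all 12 libraries and 1912 with the block. With control animal 1 or 2 left out, the J2 difference had 0 calls each time and the K1 difference 0 or 3. With DKO animal 1 or 2 left out, J2 had 6990 or 4517 calls and K1 had 3803 or 1656. Without TMM the median of all genes in K1 by genotype moved from -0.02 to -0.40, and the higher share of calls from 48.5% to 27.4%. It moved from 52.4% to 42.1% in input and from 49.5% to 32.6% in J2, to between 21.1% and 36.0% for pulldown against input, from between 41.1% and 51.1%, and to 10.4% and 13.1% for the differences, from 28.5% and 25.1%. The DKO pulldowns were the shallowest libraries, and Cd36 in them rests on 7 to 30 counts.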

Other observations

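Over all 12 libraries, each member was compared with 9377 other genes by Pearson correlation of log2 CPM, as a description, since the libraries share animals and 6 groups. Cd36 was most like Agmo (r = 0.992), Fabp2 like Mrps36 (0.989), Apoa1 like Glb1 (0.986) and Npc1l1 like Mme (0.985), which encodes the brush border peptidase neprilysin. Apob was most like Mfsd11 (0.984), Mttp like Fat1 (0.979), Mogat2 like Uqcrc2 (0.979), Fabp1 like Ccl25 (0.970) and Apoa4 like Guca2b (0.969). Dgat1 had the weakest best match, Tmem50a (0.917).

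Among the members, Apob and Mogat2 were most alike over the 12 libraries (r = 0.936), followed by Cd36 with Npc1l1 (0.925), Apoa1 with Apoa4 (0.911) and Fabp1 with Fabp2 (0.905). Between Cd36 and Apoa1 r was -0.0015.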
